A study of Mus musculus with 15 samples.

Results

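The p38 cascade is a stress-activated branch of the MAP kinase network, and 8 of its genes are described here in hearts of mice heterozygous for Lmna H222P and of control mice. The genes were Map3k4 and Map3k7 at the top of the cascade, Map2k3 and Map2k6 below them, the p38 kinase genes Mapk14, Mapk11 and Mapk12, and Atf2, a transcription factor at the end. Every probe set annotated to exactly 1 gene symbol that is among these 8 was taken, which gave 28 of the 45101 probe sets on the array, and no gene was without a probe set. Signals on 1-colour Affymetrix arrays came from 7 heterozygous male mice and 8 control male mice, 1 array per mouse, all labelled 10 weeks. The nuclear lamina is built from lamins A and C, both made from Lmna, and the H222P substitution has been found in people with Emery-Dreifuss muscular dystrophy, a disease of muscle and heart. The labels give the control mice no genotype beyond that name, and give no strain, litter or batch for either group. A heart holds atria, ventricles, vessels and blood, and the share of each in a sample was not measured. Fewer cells of a type and less RNA per cell therefore cannot be told apart in these data.

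In this cascade MAP3 kinases such as MEKK4 (from Map3k4) and TAK1 (from Map3k7) phosphorylate the kinases MKK3 (from Map2k3) and MKK6 (from Map2k6), which in turn phosphorylate p38 on a threonine and a tyrosine of its activation loop. Active p38 phosphorylates other kinases and transcription factors, ATF2 among them. In heart muscle the pathway is known for its response to stretch, ischaemia and inflammatory cytokines. Its activity is set mainly by phosphorylation, which an array of transcripts does not measure.

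No probe set of the 8 genes passed the test between heterozygous and control hearts. Of the 28 probe sets, 27 passed the filter on weak signals, and 0 of these 27 passed limma's moderated test with p adjusted by Benjamini-Hochberg over the whole table, the smallest adjusted p being 0.288. The background was 98 of 38870 tested probe sets, or 0.252%, of which 35 were higher (0.0900%) and 63 lower (0.162%) in heterozygous hearts. At an unadjusted p under 0.05 there was 1 of 27 member probe sets, where the share among all tested probe sets was 14.6%. The groups overlapped in every one of the 28 probe sets, whereas they did not overlap in 0.468% of all tested probe sets. The log2 differences, heterozygous minus control, ran from -0.95 to 0.51 with a median of -0.02, 12 above 0 and 15 below, and the median over all tested probe sets was -0.11.

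**Figure D1:**
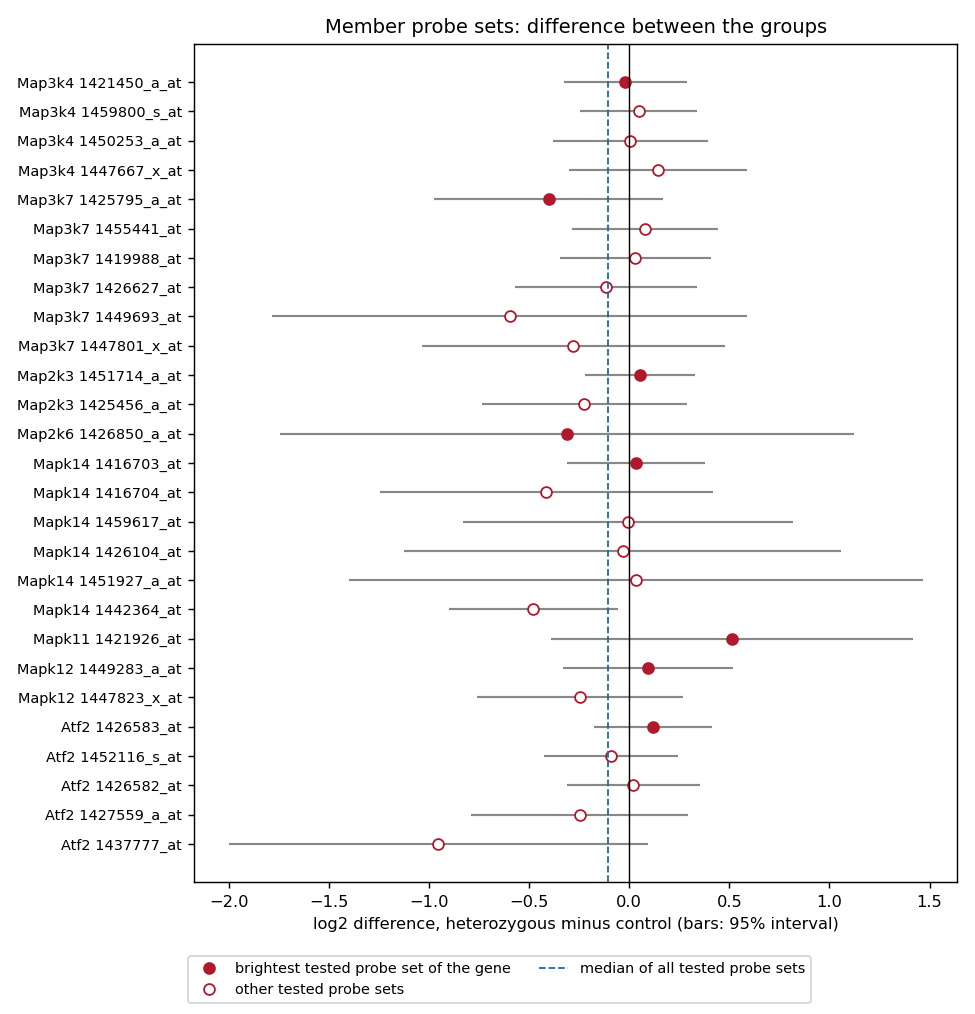
Log2 difference, heterozygous minus control, for the 27 tested probe sets of the 8 genes, with limma's 95% interval as the bar. Filled points are the brightest tested probe set of each gene, the dashed line is the median over all tested probe sets (-0.11), and the interval leaves out 0 in 1 probe set, Mapk14 1442364_at.

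The promoters of these genes were searched for the cAMP response element, the site ATF2 binds with Jun, because Atf2 is both a target of the cascade and a transcription factor. The windows were the 250 bases before each annotated start, credited to RefSeq on GRCm38.p6, 11 windows for the 8 genes, searched on both strands. The full element TGACGTCA was found in 0 of the 11 windows and in 1.55% of the 32851 windows of all genes. Its core TGACG, which the full element contains, was found in 3 of the 11 windows and in 17.8% of all windows. The letters TGANTCA, a loose form of the AP-1 site that allows any middle base, were found in 1 of the 11 windows and in 6.75% of all windows. The member match, TGATTCA in Map2k6, has a T in the middle, where the usual AP-1 site has C or G. The stretches with a match are shown, 60 bases each, 5′ to 3′ on the gene's strand, with the matching letters (on either strand) in capitals.
Map3k7, chr4:31963857-31963916, plus strand: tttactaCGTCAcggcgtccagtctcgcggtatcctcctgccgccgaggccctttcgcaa
Map3k4, chr17:12318661-12318720, minus strand: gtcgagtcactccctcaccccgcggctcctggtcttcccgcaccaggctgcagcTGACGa
Mapk11, chr15:89149785-89149844, minus strand: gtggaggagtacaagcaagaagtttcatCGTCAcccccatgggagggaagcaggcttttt
Map2k6, chr11:110398852-110398911, plus strand: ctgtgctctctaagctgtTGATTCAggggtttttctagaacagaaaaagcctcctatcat
The match began 243 bases before the start in Map3k7, 210 in Mapk11, 232 in Map2k6 and 6 in Map3k4. A match in letters is a description of the window and says nothing about binding in these hearts. In the RefSeq gene order Mapk11 and Mapk12 are neighbours on chromosome 15.

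At the top of the cascade, Map3k4 encodes MEKK4, a kinase that binds the stress-induced GADD45 proteins. Its brightest probe set, 1421450_a_at, had a lowest, median and highest signal of 400.3, 595.7 and 755.5 units in heterozygous hearts and of 519.5, 607.15 and 666.6 units in control hearts. The heterozygous arrays spanned the wider range and took in that of the controls. The log2 difference was -0.02 with a 95% interval of -0.33 to 0.29 (adjusted p = 0.966, limma). The other 3, 1450253_a_at, 1459800_s_at and 1447667_x_at, lay at log2 differences of 0.01, 0.05 and 0.14, and all 4 were above the median signal of their array on every array. The interval of the brightest probe set corresponds to folds from 0.797 to 1.22.

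Map3k7 encodes TAK1, which carries signals of cytokine, Toll-like and TGF-beta receptors to both p38 and NF-kappaB. Its brightest probe set, 1425795_a_at, had 264.4, 412.4 and 708.6 units (lowest, median, highest) in heterozygous hearts and 303.9, 538.95 and 822 units in control hearts. Among the controls, arrays 1, 6 and 8 lay at 819.2, 822 and 786.1 units, while arrays 2, 4 and 5 lay at 303.9, 384.8 and 383.8 units, inside the heterozygous range. The log2 difference of -0.40 had an interval of -0.97 to 0.17 (adjusted p = 0.510, limma). Of the 5 other probe sets, 1455441_at and 1419988_at lay at 0.08 and 0.03, and 1426627_at, 1447801_x_at and 1449693_at at -0.12, -0.28 and -0.60. Whether the probe sets of Map3k7 differ from each other in their shift was not tested. The difference of the brightest one was -0.20 with each array centred on its median and -0.90 with the mean of atrial markers as a covariate (adjusted p = 0.780 and 0.557, limma). The brightest probe set and 1455441_at had a negative correlation across arrays (Pearson r = -0.48, permutation p = 0.0667, adjusted p = 0.1001; Spearman rho = -0.51, p = 0.0563, adjusted p = 0.0941; n = 15 arrays), which missed the threshold, and r was -0.52 without the 2 arrays farthest from the median.

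Map2k3 encodes MKK3, one of the kinases that phosphorylate p38. Its brightest probe set, 1451714_a_at, was measured tightly, with 1129.8, 1328.5 and 1470.5 units (lowest, median, highest) in heterozygous hearts and 1075.3, 1197.65 and 1531.2 units in control hearts. The mean log2 signals were 10.33 ± 0.15 (SD, n = 7) in heterozygous and 10.28 ± 0.20 (SD, n = 8) in control hearts. The log2 difference was 0.05 with an interval of -0.22 to 0.33 (adjusted p = 0.875, limma), or folds from 0.859 to 1.26. This was the narrowest interval among the 27 tested probe sets, but the difference was 0.26 with each array centred on its median (adjusted p = 0.495, limma). With the mean of atrial markers as a covariate the difference was 0.44, outside the main fit's interval (adjusted p = 0.516, limma). The atrial mean nearly separated the groups, at 8.30 to 10.25 on heterozygous and 6.36 to 8.43 on control arrays. That fit therefore tells the group difference poorly from the covariate. The other probe set, 1425456_a_at, was made for the same target sequence and lay at -0.22 with an interval of -0.74 to 0.29.

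Map2k6 encodes MKK6, the other main kinase of p38, and a single probe set measured it. Signals of 1426850_a_at were 6.8, 65.3, 106.5, 136.7, 157.1, 190.4 and 191.2 units on the 7 heterozygous arrays in order of size, and 30.5, 42.2, 99.1, 137.6, 148.7, 165.3, 201 and 207.4 units on the 8 control arrays. The signal of 6.8 units came from heterozygous array 2, and the other 6 heterozygous arrays lay within the control range. The log2 difference of -0.31 had an interval of -1.74 to 1.12 (adjusted p = 0.862, limma), or folds from 0.299 to 2.18. Without heterozygous array 2 the difference became 0.30 (adjusted p = 0.799), so the sign of the Map2k6 difference rested on that array.

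Mapk14 encodes p38 alpha, the main p38 kinase of the heart. Its brightest probe set, 1416703_at, had 903.7, 1357.2 and 1626.9 units (lowest, median, highest) in heterozygous hearts and 977.3, 1186.2 and 1500.2 units in control hearts. The groups overlapped almost entirely, at mean log2 signals of 10.25 ± 0.34 (SD, n = 7) in heterozygous and 10.22 ± 0.20 (SD, n = 8) in control hearts. The log2 difference was 0.03 with an interval of -0.31 to 0.38 (adjusted p = 0.947, limma), or folds from 0.806 to 1.30.

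The other 5 probe sets of Mapk14 were below their array's median on at least 1 array. The 1 member probe set with an unadjusted p under 0.05 was 1442364_at, at 18.3, 21.7 and 25.9 units (lowest, median, highest) in heterozygous hearts and 17.2, 31.4 and 47.1 units in control hearts. Heterozygous signals lay inside the control range, and all 15 arrays were below their array's median. Its log2 difference was -0.48 with an interval of -0.90 to -0.06 (unadjusted p = 0.0285, adjusted p = 0.288, limma). The remaining 4 were 1416704_at at -0.41, 1426104_at at -0.03, 1459617_at at -0.00726 and 1451927_a_at at 0.03, with intervals that reached from -1.40 to 1.47.

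Mapk11 encodes p38 beta and gave weak signals in both probe sets, below the array median on all 15 arrays. Probe set 1421926_at had 17.1, 35.6 and 66.4 units (lowest, median, highest) in heterozygous hearts and 8.6, 20.85 and 67.9 units in control hearts. Its log2 difference of 0.51 was the highest of the 27 but had an interval of -0.39 to 1.42 (adjusted p = 0.606, limma). The other, 1421925_at, was the 1 member probe set that did not pass the filter and was not tested, with 6.1 to 41.3 units in heterozygous hearts and 5.3 to 24.8 units in control hearts.

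Mapk12 encodes p38 gamma, known best from skeletal muscle. Its brightest probe set, 1449283_a_at, had 301.4, 441.9 and 522.9 units (lowest, median, highest) in heterozygous hearts and 212.5, 406.75 and 462.2 units in control hearts. Control array 1, at 212.5 units, lay apart from the other controls, which began at 326.3 units. The log2 difference was 0.10 with an interval of -0.33 to 0.52 (adjusted p = 0.857, limma). The second probe set, 1447823_x_at, a type that can hold probes matching other transcripts, lay at -0.24 (interval -0.76 to 0.27). The 8 skeletal muscle markers averaged 5.34 to 7.35 in log2 signal on heterozygous arrays and 5.05 to 7.26 on control arrays. Of these markers Ckm, which heart muscle expresses too, was above the array median on every array, at 13429 to 26539.4 units in heterozygous and 15719.8 to 45705.5 units in control hearts. The other 7 were below the array median on between 7 arrays (Pvalb) and all 15 (Actn3).

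Atf2 was measured by 5 probe sets, 3 of them made for the same target sequence. The brightest, 1426583_at, had 902.7, 1208.6 and 1355.4 units (lowest, median, highest) in heterozygous hearts and 917.4, 1016.45 and 1359.6 units in control hearts. The mean log2 signals were 10.18 ± 0.21 (SD, n = 7) in heterozygous and 10.06 ± 0.21 (SD, n = 8) in control hearts, and the difference of 0.12 had an interval of -0.18 to 0.41 (adjusted p = 0.732, limma). The other probe sets of that target, 1452116_s_at and 1426582_at, lay at -0.09 and 0.02. Probe set 1427559_a_at had 72.6, 107.2 and 224.7 units (lowest, median, highest) in heterozygous hearts and 76.7, 138.25 and 211.2 units in control hearts, a log2 difference of -0.25 with an interval of -0.79 to 0.29 (adjusted p = 0.690, limma). The weakest probe set of Atf2, 1437777_at, had the lowest difference of all 27, -0.95, with an interval of -2.0 to 0.09 (adjusted p = 0.387, limma). It spanned 5.7 to 56.9 units in heterozygous hearts and 21.9 to 100 units in control hearts and was above the array median on 1 of 15 arrays.

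Kinases of the same level of the cascade were also set against each other within each array, since a factor common to a whole array cancels in such a difference. Processing that acts unequally on weak and bright signals does not cancel, and the signals of Mapk11 were weak. The absolute size of the difference depends on the probes, and only its shift between groups has a meaning. Map2k3 minus Map2k6 averaged 3.89 ± 1.78 (SD, n = 7) in heterozygous and 3.53 ± 0.91 (SD, n = 8) in control hearts, a shift of 0.37 (exact two-sided permutation p = 0.701, adjusted p = 0.742 over 3 pairs). The shift was -0.06 for Mapk14 minus Mapk12 (exact permutation p = 0.742, adjusted p = 0.742) and -0.48 for Mapk14 minus Mapk11 (exact permutation p = 0.393, adjusted p = 0.742). None of the 3 shifts exceeded the spread between arrays. Without heterozygous array 2 the shift of Map2k3 minus Map2k6 became -0.28 (exact permutation p = 0.5258, adjusted p = 0.774).

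A measure of RNA quality was set beside the members' signals. The log2 ratio of the 3′ over the 5′ control probe set of Actb, the beta-actin gene, is high where labelled RNA is short, and it lay between 0.33 and 1.69 on heterozygous arrays and between 0.29 and 1.23 on control arrays. The difference of the group means was 0.28 (exact permutation p = 0.235, adjusted p = 0.393 over 12 array-level values). The ratio was highest on heterozygous arrays 2, 3 and 5 and control array 6, at 1.69, 1.32, 1.41 and 1.23. Over 15 arrays the ratio was set against each of the 27 tested probe sets, a choice made after seeing the data, and 4 relations passed the threshold by Pearson's r, all negative.

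These 4 were Map2k6 1426850_a_at (r = -0.69, permutation p = 0.00603), Mapk14 1416704_at (r = -0.68, permutation p = 0.00521), Map2k3 1425456_a_at (r = -0.68, permutation p = 0.0053) and Map3k4 1450253_a_at (r = -0.67, permutation p = 0.0066), with an adjusted p of 0.04455 each. By ranks none passed: Spearman's rho was -0.50, -0.44, -0.46 and -0.58 in the same order, with permutation p of 0.0601, 0.107, 0.0889 and 0.026 and adjusted p of 0.353, 0.353, 0.353 and 0.351. Without the 2 arrays farthest from the median ratio, heterozygous arrays 2 and 5, r was -0.37, -0.42, -0.64 and -0.64. Among the 11 arrays without the 4 highest ratios, r was -0.09, -0.15, -0.27 and -0.54. Leaving those 4 arrays out also narrows the range of the ratio, which can weaken r by itself. How far the relations rested on those 4 arrays was therefore not tested. Within the groups r was -0.72, -0.71, -0.64 and -0.76 over 7 heterozygous arrays and -0.62, -0.53, -0.67 and -0.73 over 8 control arrays.

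The brighter probe sets made for the same targets had weaker relations to the ratio, with r = -0.47 for Mapk14 1416703_at, -0.24 for Map2k3 1451714_a_at and -0.34 for Map3k4 1421450_a_at, none passing. Whether 2 probe sets of the same target differ in their relation to the ratio was not tested. With the ratio as a covariate the Map2k6 difference became 0.30 (adjusted p = 0.821, limma), and without the 4 arrays it was 0.24 (adjusted p = 0.826, limma). In both fits 0 of 27 member probe sets passed.

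**Figure D2:**
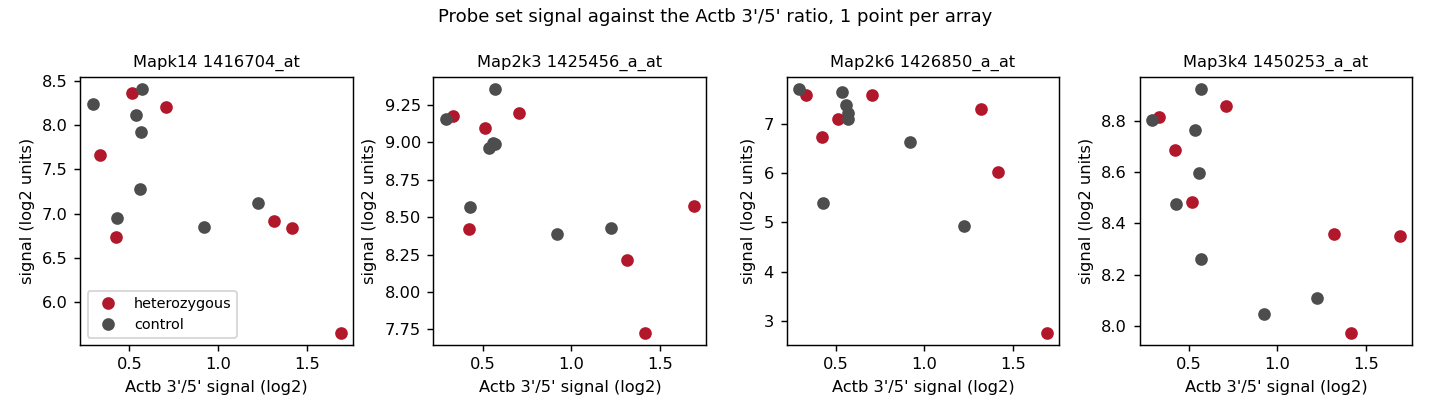
Log2 signal (vertical) against the log2 ratio of the 3′ over the 5′ Actb control probe set (horizontal), 1 point per array, for the 4 probe sets with an adjusted p under the threshold by Pearson's r; the axes do not start at 0. The 4 arrays with a ratio of 1.23 or more, 3 heterozygous and 1 control, lie at the right, and without them r is between -0.54 and -0.09.

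The brightest and second brightest probe sets of each gene were set against each other across arrays. Pearson's r over 15 arrays was 0.57 for Atf2 (permutation p = 0.0306, adjusted p = 0.0898), 0.58 for Map2k3 (permutation p = 0.0223, adjusted p = 0.0898) and 0.52 for Mapk14 (permutation p = 0.0449, adjusted p = 0.0898). It was 0.46 for Map3k4 (permutation p = 0.0915, adjusted p = 0.101) and -0.44 for Mapk12 (permutation p = 0.101, adjusted p = 0.101). Spearman's rho was 0.50, 0.62, 0.52, 0.27 and -0.23 in the same order, with permutation p of 0.0628, 0.0154, 0.0492, 0.335 and 0.41 and adjusted p of 0.0941, 0.0922, 0.0941, 0.401 and 0.41. Without the 2 arrays farthest from the median r was 0.53, 0.47, 0.26, 0.29 and -0.52. With Map3k7, given above, 0 of 6 pairs passed after adjustment.

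Around the 8 genes, 56 further genes of the pathway were examined in 6 lists, and 52 of them had a tested probe set. In their brightest tested probe set 0 of 52 passed limma's test adjusted over the whole table, the smallest adjusted p being 0.125. At an unadjusted p under 0.05 there were 9, 5 higher and 4 lower in heterozygous hearts, against the background of 14.6% (4.44% higher, 10.1% lower). The direction of that background turned with the scaling. As deposited 1726 of all tested probe sets were higher and 3937 lower at that p, with each array centred on its median 4177 were higher and 1879 lower, and after quantile normalization 2454 were higher and 2567 lower, while 11 and 8 of the 52 pathway genes had such a p under the last 2 scalings. The median log2 difference over the 52 was -0.02, beside -0.11 over all tested probe sets. The 52 are the brightest probe sets of their genes, while the background holds many weak ones, so the 2 are not fully alike. With the filter at a log2 of 6, 4298 of 24976 probe sets had an unadjusted p under 0.05 in limma's test. Their median difference was -0.055 under that filter, where 9 of 50 pathway genes had such a p.

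The list of 15 upstream activators also holds Mapk13, which encodes p38 delta, itself a p38 kinase and not an activator. Of the 15 genes 0 passed, 9 lay above and 6 below 0, and the median was 0.06. Mapk13 was weak, at 11.1 units in heterozygous and 14.9 units in control hearts (geometric means), and lay at -0.43 (adjusted p = 0.782, limma). Map3k5, which encodes the stress kinase ASK1, had geometric mean signals of 744.3 units in heterozygous and 510.0 units in control hearts, a log2 difference of 0.55 with an interval of 0.14 to 0.95 (adjusted p = 0.223, limma). Tab3, an adaptor of TAK1, lay at 0.27 (interval 0.02 to 0.53, adjusted p = 0.312). Both had a positive difference without passing. Of 4 scaffold genes 0 passed, with a median of -0.07, and the smallest p belonged to Ccm2, which binds MEKK3, at 0.25, and Mapk8ip2, a JIP scaffold, at -0.73 (adjusted p = 0.533 and 0.609).

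Of 6 measured kinases that p38 phosphorylates 0 passed, and the median was 0.04. Mapkapk3, which encodes MK3, had 357.2 units in heterozygous and 494.6 units in control hearts (geometric means), a log2 difference of -0.47 with an interval of -0.78 to -0.16 (adjusted p = 0.188, limma). Mapkapk2, which encodes the related MK2, lay at 0.16 (interval -0.15 to 0.48, adjusted p = 0.636). Whether these kinases differ from each other in their shift was not tested.

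Of 10 measured transcription factor targets and ATF2 partners 0 passed, 4 lay above and 6 below 0, and the median was -0.04. The smallest p in all 6 lists was that of Jdp2, a repressor that dimerises with Jun and ATF2, at 175.2 units in heterozygous and 286.1 units in control hearts (geometric means). Its log2 difference of -0.71 had an interval of -1.099 to -0.316 (adjusted p = 0.125, limma). Creb1, a factor that binds the cAMP response element, lay at 0.46 (interval 0.10 to 0.82, adjusted p = 0.239). Of 7 other measured substrates 0 passed, with a median of -0.05. The small heat shock protein gene Hspb1, phosphorylated by MK2, lay at -0.28 (adjusted p = 0.323) and the RNA-binding protein gene Elavl1 at 0.32 (adjusted p = 0.325).

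Of 10 measured phosphatase genes 0 passed, with a median of -0.08. Dusp4, a nuclear MAP kinase phosphatase, had 60.2 units in heterozygous and 17.5 units in control hearts (geometric means), a log2 difference of 1.78 with an interval of 0.68 to 2.88 (adjusted p = 0.163, limma). Both means were low, since array medians lay between 56.7 and 94.2 units. Dusp8, a phosphatase of JNK and p38, had 485.5 units in heterozygous and 647.6 units in control hearts, a difference of -0.42 with an interval of -0.74 to -0.09 (adjusted p = 0.237).

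**Figure D3:**
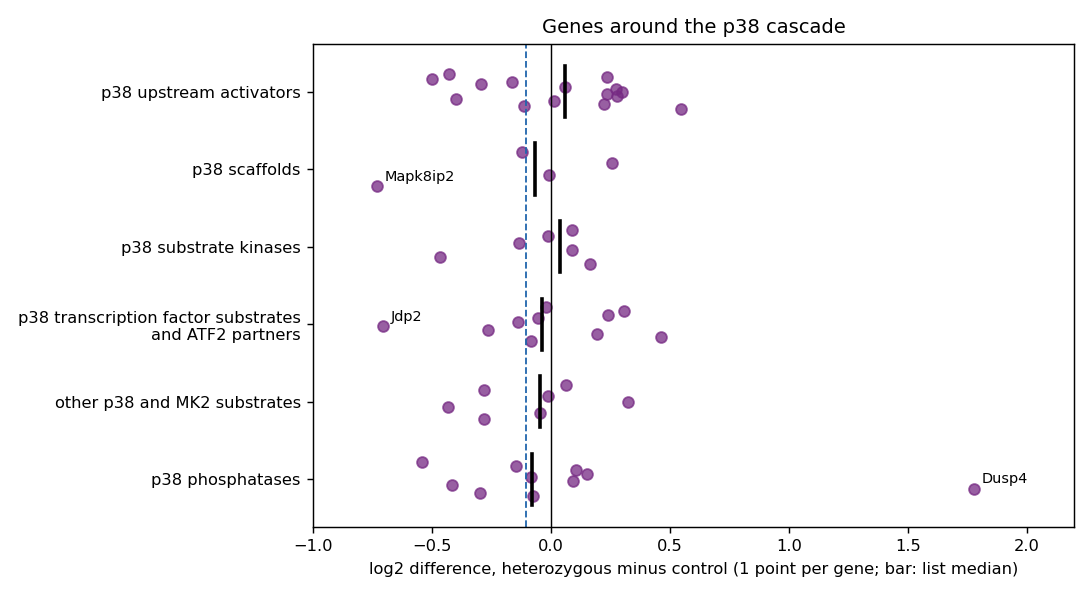
Log2 difference, heterozygous minus control, of 52 genes around the p38 cascade in their brightest tested probe set, 1 point per gene, by list; the bar is the list's median and the dashed line the median over all tested probe sets (-0.11). No gene passed after adjustment, and the labelled genes are those with a difference over 0.6 in size.

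Other features of the arrays differed between the groups beside these results. The 7 atrial markers averaged 8.30 to 10.25 in log2 signal on heterozygous arrays and 6.36 to 8.43 on control arrays (exact permutation p = 0.000466, adjusted p = 0.0028 over 12 values). They were not shifted alike. Sln lay at 241 to 5110.1 units in heterozygous and 2.8 to 406.7 units in control hearts, and Myl7 at 451.9 to 5877.5 against 24.7 to 1212.9 units. Nppa overlapped widely, at 4493.7 to 24500 against 5159.4 to 10063.9 units, as did Nr2f2, at 148.9 to 317.7 against 102.5 to 298.5 units. Bmp10 reached lower, at 4.2 to 33.6 against 5.9 to 92.7 units, and was below the array median on 14 of 15 arrays. The 6 smooth muscle and pericyte markers averaged 9.53 to 10.42 on heterozygous and 9.20 to 9.79 on control arrays (exact permutation p = 0.00404, adjusted p = 0.0135). This list was split. Acta2 lay at 4370.9 to 9424.2 units in heterozygous and 3167.6 to 5038.6 units in control hearts. The pericyte gene Rgs5 lay lower, at 6182.3 to 10159.3 against 9297.9 to 11007.3 units, and Pdgfrb at 699.2 to 1066.5 against 693.1 to 1101.6 units. The 4 measured of 6 erythroid markers averaged 6.70 to 7.47 on heterozygous and 7.58 to 8.495 on control arrays (exact permutation p = 0.000466, adjusted p = 0.0028), and the 5 platelet markers 6.37 to 7.34 on heterozygous and 7.21 to 7.90 on control arrays (exact permutation p = 0.00451, adjusted p = 0.0135). Among the erythroid markers Slc4a1 and Bpgm separated the groups. Slc4a1 lay at 11.6 to 87.3 units in heterozygous and 108.1 to 196.4 units in control hearts, and Bpgm at 213.4 to 370.8 against 406.7 to 629.5 units. Alas2 overlapped, at 377.3 to 1253.6 against 1116.7 to 1536.7 units. Hba-a1 overlapped too, at 8.3 to 90.4 against 11.3 to 162.2 units, and was below the array median on 11 of 15 arrays. Among the platelet markers only Ppbp separated the groups, at 71.8 to 102.4 units in heterozygous and 217.8 to 593.7 units in control hearts. Pf4, the brightest, lay at 719.6 to 2285.5 against 980.6 to 1830.3 units, and Gp9 was below the array median on 14 of 15 arrays. The 8 ventricular markers averaged 13.16 to 14.37 on heterozygous and 13.46 to 14.84 on control arrays (exact permutation p = 0.993, adjusted p = 0.993). With the atrial mean as a covariate 0 of 27 member probe sets passed, in a fit that called only 2 of all 38870 tested probe sets. Since the atrial mean nearly separated the groups, genotype and covariate cannot be told apart well in that fit. The differences of the brightest probe sets moved in that fit, to 0.38 for Mapk14, 0.38 for Mapk12 and 1.52 for Map2k6, beside the values of Map2k3 and Map3k7 given above. The part of the other cell types in the members' signals was not tested.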

How the data were processed

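Total RNA of 15 mouse hearts was measured on Affymetrix arrays. The authors deposited 1 signal intensity per probe set and array, credited to GCRMA per the submitters' processing notes, with no version given in the sources used here. The values did not look like GCRMA output: they lay between 0.1 and 80754.9 on a linear scale, and every array had a mean of 250.0 once 2% of its values were trimmed at each end. Detection calls and scan dates were not used here. A signal has no count behind it, so the number of arrays limits the precision. The labels only number the mice within a group, so each p-value refers to the spread between these samples, which may be partly technical. Identical values made up at most 0.290% of any pair of arrays.

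Genes were assigned by the platform annotation, in which 34958 probe sets had 1 symbol, 932 several and 9211 none. Control probe sets of the manufacturer, 64 in all, did not enter the tests. Signals were log2-transformed without a pseudocount, and a probe set was tested if it exceeded a log2 of 4 on at least 7 arrays, without regard to group. The group comparison used limma 3.58.1 (R 4.3.3), two-sided, with a threshold of 0.05 after adjustment over all 38870 tested probe sets. Intervals are limma's 95% intervals per probe set and are not adjusted. Array-level values were tested by exact permutation over all 6435 splits of the arrays, and correlations by 100000 resamples (Python 3.11.15, scipy 1.17.1, matplotlib 3.10.9). The fit was tested on simulated data.

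The members and lists were chosen with earlier results of these data known. The text names all members in every probe set and, of each pathway list, the 2 genes with the smallest p in their brightest tested probe set, which is the one with the highest mean over all arrays. Mapk13 is named as well, since it is a p38 kinase. Genes of the marker lists are named for their lowest or highest signals, or to show a split within a list. Pathway genes with no tested probe set of their own were not analysed here. Mapkapk3 against Mapkapk2, and the lists against other genes, were not tested. The alternatives were other filters, scalings, priors and tests, 3 covariates or blocks, a mean over a gene's probe sets, and fits without each array in turn.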

Additional observations from a re-analysis of the deposited data

Results flagged for a closer look

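In 62 groups of values (28 probe sets and 3 kinase pairs, each in 7 heterozygous and in 8 control arrays), 5 held an array whose gap to its nearest neighbour was a large share of the group's range by Dixon's criterion, which chance meets in about 1 of 20 groups. Heterozygous array 2 was the lowest of its group for Map2k6 1426850_a_at, at 6.8 units against 65.3 to 191.2 on the other 6, and for Mapk14 1451927_a_at, at 4.5 units against 29.2 to 68.1. It was also the highest for Map2k3 minus Map2k6, at a log2 difference of 7.76 against 2.73 to 4.11, which follows from its Map2k6 signal. That array had the highest Actb 3′ over 5′ ratio of all 15, 1.69 on the log2 scale. Control array 1 was the lowest of its group for Mapk12 1449283_a_at, at 212.5 units against 326.3 to 462.2. Control array 5 was the highest of its group for Atf2 1437777_at, at 100 units against 21.9 to 40.8.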

How the results depend on the processing

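In the fit and its 29 alternatives 0 member probe sets and 0 pathway genes passed, and the smallest adjusted p of any member was 0.196, without control replicate 4. The count over all tested probe sets moved by more: it was 98, and became 192 with the filter at a log2 of 6, 287 with weak signals set to a log2 of 6, 312 with a trended and robust prior, 65 with median centring (51 higher, 14 lower), 65 with quantile normalization (37 higher, 28 lower), 2 with the atrial covariate, 1 with the replicate block and 0 with the Wilcoxon rank sum test. Leaving out each array in turn gave 17 to 150: it was 40, 20, 54 and 150 without heterozygous arrays 1, 4, 6 and 7, and 27, 32, 27, 24, 52, 55 and 17 without control arrays 1 to 7, and it stayed within 1.5 times of 98 without each of the other 4 arrays. Not every setting tested the same probe sets. The main fit tested 38870, of which 27 were members. With the filter at a log2 of 6 it was 24976 and 21, with Mapk11 left out. With weak signals set to a log2 of 6 it was 36091 and 25, and with no filter 45037 and 28. The median of all probe sets was -0.11 as deposited, 0.10 after centring and -0.02 after quantile normalization. Causes of these changes were not tested.

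No member difference passed in any setting, but signs changed, in Map2k6, Mapk11 and Atf2 also from values away from 0. With each array centred Mapk14 lay at 0.24, Mapk11 at 0.72, Mapk12 at 0.30, Map2k3 at 0.26, Map2k6 at -0.11, Map3k7 at -0.20 and Atf2 at 0.32. With the atrial covariate Mapk14 lay at 0.38, Mapk11 at 0.20, Mapk12 at 0.38, Map2k3 at 0.44, Map3k7 at -0.90 and Atf2 at 0.20. Map3k4 1421450_a_at turned to 0.19 with centring, 0.00405 with array weights, 0.000207 with the replicate block, 0.26 with the atrial covariate, 0.0316 with the Actb covariate, 0.0642 without the 4 arrays of steep Actb ratio and 0.0447 as the mean of its probe sets. Map2k6 turned to 1.52 with the atrial covariate, 0.30 with the Actb covariate and 0.24 without the 4 arrays, the last an alternative chosen after seeing the data. Mapk14 turned to -0.00483 with quantile normalization, and Mapk11 to -0.00308 with weak signals set to a log2 of 6. As means of their probe sets Mapk14 lay at -0.14, Mapk12 at -0.0747, Map2k3 at -0.0851 and Atf2 at -0.23. Without 1 array in turn, Atf2 ranged from 0.08 to 0.18, Map2k3 ranged from 0.02 to 0.10, Map2k6 ranged from -0.57 to 0.30, Map3k4 ranged from -0.0746 to 0.0781, Map3k7 ranged from -0.54 to -0.30, Mapk11 ranged from 0.31 to 0.73, Mapk12 ranged from -0.0213 to 0.16 and Mapk14 ranged from -0.0366 to 0.10.

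The shift of Map2k3 minus Map2k6 turned to -0.16 without the 4 arrays, and that of Mapk14 minus Mapk11 to 0.0360 with weak signals set to a log2 of 6. After quantile normalization Mapk14 minus Mapk11 lay at -0.76. Without 1 array in turn, Map2k3 minus Map2k6 ranged from -0.28 to 0.60, Mapk14 minus Mapk11 ranged from -0.74 to -0.23 and Mapk14 minus Mapk12 ranged from -0.15 to 0.0404. Of the 12 array-level values 4 passed, 6 with centring, 5 with quantile normalization and 0 with the replicate block, which permutes within 7 numbered pairs; control array 8 has no partner of its number and adds nothing to any blocked difference. The smallest two-sided p those permutations allow is 0.0156, and after adjustment over 12 values 4 at that p would be needed to pass on their own, where 2 reached it, so the 0 says little about stability. Whether the titles' numbers pair the mice is not known, since the labels give no litter or batch. Same-numbered arrays had deviations correlated between -0.06 and 0.06, and 1 of 7 heterozygous arrays correlated best with the control of its number. Such correlations cannot exclude a pairing by litter or batch.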
